A study of Mus musculus with 2 samples.

Results

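The genes described here encode chaperones and folding enzymes of the endoplasmic reticulum (ER), the compartment in which secreted and membrane proteins are folded. They are Hspa5, Hsp90b1, Calr, Pdia3, Pdia4, Pdia6, Sdf2l1, Dnajb9, Manf and Creld2. They were chosen by symbol, and all 10 were found among the 10198 genes listed for both libraries. The study examined CD45- cells, that is cells without the common leukocyte surface marker, from mouse lungs dissociated 7 days after Labelling-4T1 cells had been given through the vein. 4T1 cells derive from a mammary tumour of the mouse and colonize the lung, and Labelling-4T1 cells release a fluorescent protein that cells next to them take up. 1 library holds niche cells and 1 holds distal lung cells. Both groups come from lungs that received 4T1 cells, so an uninjected lung is not among the samples, and the labels give neither the mouse strain, the age nor the number of animals. The deposited tables are named Cherry positive for niche cells and Cherry negative for distal cells, and the labels say no more about the gate.

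With 1 library per group there is no replicate, and no test was possible. Each value below carries a 95% interval that covers counting error only, so a difference between niche and distal cells is a difference between these 2 libraries. The niche library kept 1423 cells with a median of 2975 UMIs (unique molecular identifiers, each standing for 1 captured transcript), and the distal library kept 1987 cells with a median of 1975. The shallowest deposited barcode had 1245 UMIs among niche cells and 685 among distal cells, and 7 barcodes occurred in both libraries. Cells with few Malat1 transcripts, a nuclear RNA whose loss can mark damaged cells, came to 108 niche and 25 distal cells. Cells were clustered without the 10 genes and without the related pathway genes, and the 18 clusters fell into mesenchymal-like cells (781 niche, 400 distal), endothelial-like cells (497 niche, 1307 distal), epithelial-like cells (94 niche, 254 distal) and a small immune-like cluster (51 niche, 26 distal). The defining markers were present where the names say: the summed level of 11 mesenchymal markers was 16738 CPM (UMIs per 1000000 UMIs of the population) in mesenchymal-like cells of the niche and 18449 in those of the distal library, against 501 and 265 in endothelial-like cells.

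When unfolded proteins accumulate in the ER, the sensors IRE1, PERK and ATF6 start the unfolded protein response, and the transcription factors XBP1 and ATF6 raise the transcription of chaperone genes. Fibroblasts and secretory epithelium carry a large load of such proteins, for example collagens and surfactant proteins. HSPA5, also called BiP, is the main ER member of the HSP70 family and holds the 3 sensors inactive in unstressed cells.

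Many ER chaperone promoters are known for the ER stress response element (ERSE), a CCAAT box and a CCACG box separated by 9 bases, which NF-Y and ATF6 or XBP1 are known to bind. RefSeq promoter windows of 250 bases before to 50 bases after the start site were at hand for 9 of the 10 genes, all except Manf. The element was found on either strand in 5 of the 9, and in 35 of the 27025 promoters of the same length searched, or 0.130%. The 6 sites are shown because the choice of genes did not use them and they are a sequence feature that 5 of the genes share. Each is read 5′ to 3′ along the gene's own strand with 5 bases on either side, and the capitals mark the CCAAT and CCACG boxes, which appear as ATTGG and CGTGG where the element lies on the opposite strand.
Hspa5: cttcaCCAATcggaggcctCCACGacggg
Calr: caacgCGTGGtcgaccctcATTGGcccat
Hsp90b1, distant site: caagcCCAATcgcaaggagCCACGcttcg
Hsp90b1, near site: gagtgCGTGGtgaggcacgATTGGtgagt
Pdia6: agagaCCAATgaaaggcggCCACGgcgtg
Creld2: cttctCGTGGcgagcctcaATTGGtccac
In the GRCm38.p6 build these lie at chr2:34772020-34772048 (plus strand gene), chr8:84847070-84847098 (minus), chr10:86705633-86705661 and chr10:86705528-86705556 (minus), chr12:17266486-17266514 (plus) and chr15:88819515-88819543 (plus). The element began 65 bases before the RefSeq start of Hspa5, 162 before that of Calr, 212 and 107 before that of Hsp90b1, 98 before that of Pdia6 and 126 before that of Creld2. By the GENCODE annotation the Hspa5 site falls in a UTR of a longer Hspa5 transcript, and the other sites lie upstream of their genes and in no other gene. The single CCAAT box was present in 9 of 9 windows against 37.9% of all promoters, and the single CCACG box in 8 of 9 against 32.7%. Both counts include the boxes inside the elements. No window held ERSE-II (ATTGG, 1 base, CCACG), the core of the unfolded protein response element TGACGTGG or the cyclic AMP response element TGACGTCA, which occurred in 0.0370%, 0.607% and 1.88% of promoters.

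The chaperone genes were higher in niche than in distal mesenchymal-like cells, by less than 2-fold for 9 of 10. Hspa5 gave 2225 niche and 372 distal UMIs in this class, or 696 and 398 CPM. The log2 ratio of niche over distal was 0.81 (0.65 to 0.97). All 10 genes had an interval above equality, which 10.1% of the 9972 genes measured in these cells (at least 10 UMIs over both libraries) also had. Intervals narrow as counts rise, and the 10 genes had a median of 1650.5 UMIs here. The 10.1% is therefore not a share among genes of like counts, and the same limit holds for such shares in the other comparisons. Their median log2 ratio was 0.77, beside -0.16 for all measured genes. A gene is called higher or lower here when the ratio reaches 2-fold and its interval excludes equality. By that rule 1 of 10 was called higher, Sdf2l1, and 3.35% of all measured genes were. None of the 10 was called lower, against 7.51% of measured genes.

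Among the glucose-regulated chaperones, Hsp90b1, the ER HSP90 that folds integrins and Toll-like receptors, had a level of 512 CPM in niche and 382 CPM in distal cells of this class (log2 ratio 0.42, 0.26 to 0.59). Calr encodes calreticulin, a calcium-binding lectin chaperone of newly made glycoproteins. Its level was 634 in niche and 379 in distal cells, a log2 ratio of 0.74 (0.58 to 0.91). Pdia3, the disulfide isomerase that works with calreticulin on glycoproteins, stood at 463 and 356 CPM, with a log2 ratio of 0.38 (0.21 to 0.55). The 2 partners of the lectin cycle were thus both above equality, and their intervals did not overlap.

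The other disulfide isomerases form and rearrange the disulfide bonds of folding proteins. Pdia4 gave 474 and 77 UMIs, or 148 and 82.3 CPM, with a log2 ratio of 0.84 (0.50 to 1.22). Pdia6, which also shuts off activated sensors, stood at 412 in niche and 251 in distal cells (log2 ratio 0.71, 0.51 to 0.92).

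HSPA5 works with cofactors, and these were measured at lower counts. Sdf2l1, which forms a complex with an ER HSP40 and HSPA5, gave 278 niche and 34 distal UMIs, or 87.0 and 36.4 CPM. Its log2 ratio of 1.24 (0.74 to 1.82) was the highest of the 10. Dnajb9, an HSP40 that brings HSPA5 to the sensor IRE1 and to proteins bound for degradation, had the lowest ratio of the 10, at 0.34 (0.02 to 0.68), from 132 and 104 CPM. Manf encodes a secreted ER protein that binds HSPA5 and is released under stress. It stood at 472 in niche and 256 in distal cells, a log2 ratio of 0.88 (0.69 to 1.09). Creld2, a secreted ER protein induced under stress, gave 240 and 40 UMIs, or 75.1 and 42.8 CPM, with a log2 ratio of 0.80 (0.32 to 1.33).

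**Figure D1:**
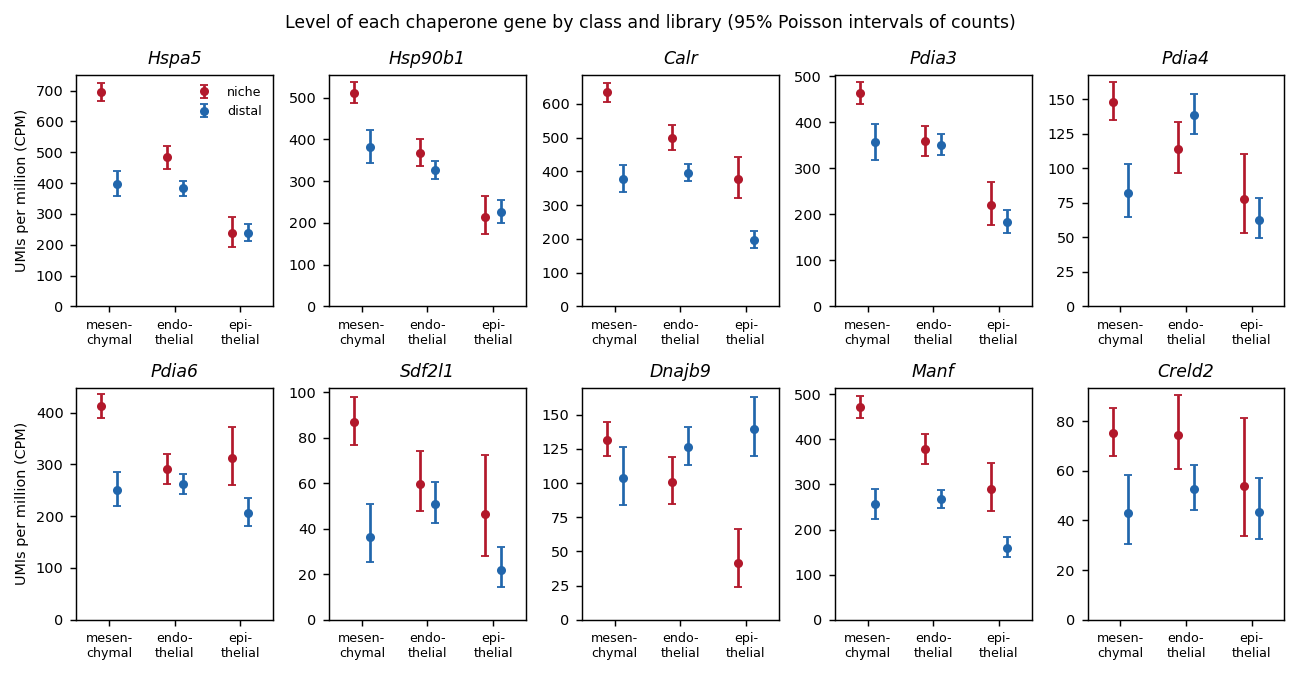
Level of each gene in CPM (vertical axis, from 0, one scale per panel) in mesenchymal-, endothelial- and epithelial-like cells of the niche (red) and distal (blue) libraries, with exact 95% Poisson intervals that cover counting error only. In mesenchymal-like cells the niche value lies above the distal value in all 10 panels, while Dnajb9 shows the reverse order in epithelial-like cells (41.5 niche, 139.8 distal).

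Cell depth differed along with these ratios: mesenchymal-like cells of the niche had a median of 3557 UMIs, and distal ones 2080.5. In cells of 1500 to 3000 UMIs only (259 niche and 210 distal cells, medians of 2203 and 2120.5 UMIs), a range chosen after seeing the data, the median log2 ratio of the 10 genes was 0.41. Hspa5 was then at 0.41 (0.13 to 0.69), Calr at 0.57 (0.28 to 0.86), Manf at 0.75 (0.42 to 1.09) and Sdf2l1 at 1.28 (0.47 to 2.22). The intervals of Dnajb9 (-0.11 to 0.92) and Creld2 (-0.67 to 1.10) spanned equality there. With every cell thinned to 1200 UMIs instead, the median was 0.75.

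After thinning, 47.2% of niche mesenchymal-like cells held at least 1 Hspa5 UMI (43.7% to 50.8%, exact Clopper-Pearson interval), against 33.1% of distal ones (28.3% to 38.3%). The unthinned shares were 73.5% and 48.0%. No niche cell and 47 distal cells were too shallow for the thinning. For Manf the thinned shares were 39.4% and 23.8%, and for Sdf2l1 they were 10.2% and 3.4%. Immune-like cells, the group with the lowest summed level in both libraries (median depths of 2014 and 1951 UMIs), held a Hspa5 UMI in 9.80% of niche and 12.5% of distal cells after thinning. Their shares were 19.6% and 16.7% for Manf, and 5.88% and 4.17% for Sdf2l1. The niche mesenchymal intervals of Hspa5 and Manf lay above the immune-like ones, and the distal intervals of these genes overlapped them. For Sdf2l1 the distal interval (1.77% to 5.86%) overlapped the immune-like one (0.11% to 21.1%), which rested on 1 of 24 cells. The niche Sdf2l1 interval (8.21% to 12.6%) overlapped the immune-like interval (1.23% to 16.2%) as well. Sdf2l1 shares of mesenchymal-like and immune-like cells were thus not told apart in either library. The 5% of niche mesenchymal-like cells with the most Hspa5 UMIs carried 26.6% of them, and the 5% of distal cells carried 30.4%.

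The fibroblast subtypes differed in how far niche and distal cells stood apart. With all cells of each cluster counted, the widest gap was in the Hhip Aspn myofibroblast-like cluster (187 niche and 108 distal cells). Its leading genes include markers of alveolar myofibroblasts. Acta2, Actg2 and Tagln of the smooth muscle list also led this cluster, so smooth muscle cells within it were not told apart. There 4 of 10 genes were called higher, while 4.40% of all measured genes were, and the median log2 ratio was 0.97 beside -0.17 for all genes. Hspa5 gave 528 niche and 48 distal UMIs in this cluster, or 637 and 222 CPM (log2 ratio 1.51, 1.10 to 1.98). Calr stood at 700.1 and 277 CPM (1.33, 0.95 to 1.75), and Manf at 474 and 157 (1.58, 1.09 to 2.15). Sdf2l1 rested on 72 niche and 3 distal UMIs, with a log2 ratio of 2.44 (1.04 to 4.96). Dnajb9 went the other way in value, at 85.7 and 115 CPM, with an interval that spanned equality (log2 ratio -0.45, -1.11 to 0.29).

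These myofibroblast-like cells had a median depth of 3888 UMIs on the niche side and 1778.5 on the distal side. In the 58 niche and 66 distal cells of 1500 to 3000 UMIs, Manf stood at 1.32 (0.60 to 2.13), and the median over the 9 genes measured there was 0.50. Hspa5 stood at 0.59 (-0.12 to 1.34) and Calr at 0.75 (0.10 to 1.43), and Pdia4 had the opposite sign (-0.64, -2.26 to 0.79). After thinning to 1200 UMIs the median was 1.21. The share of cells with a Hspa5 UMI, thinned, was 43.3% in niche (36.1% to 50.7%) and 20.6% in distal cells (13.1% to 30.03%).

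In the Mdk Cxcl14 fibroblast cluster, named by its leading genes (192 niche, 46 distal cells), 2 of 10 genes were called higher beside 2.97% of all measured genes. They were Manf, at 372 and 171 CPM (log2 ratio 1.09, 0.45 to 1.87), and Dnajb9, at 135 and 62.9 (1.004), whose interval began at 0.0049. Without the cells low in Malat1 the Manf ratio was 1.07, and that of Dnajb9 was 0.83, under the 2-fold limit. Hspa5 stood at 599 and 333 CPM (0.83, 0.36 to 1.37), and the median over the 10 genes was 0.57. Median depths were 3774.5 UMIs on the niche and 2317 on the distal side. In the 57 niche and 17 distal cells of 1500 to 3000 UMIs, the latter under the minimum of 20 cells, the median over the measured genes was 1.04. That is above the 0.50 of myofibroblast-like cells in this range, so the widest gap was not theirs there. The Tcf21 lipofibroblast-like cells (66 niche, 123 distal) had similar depths in both libraries, 2349.5 and 2168 UMIs. Their median log2 ratio was 0.33, with a range of 0.02 to 0.38 over the 9 alternatives tried, and 1 of 10 genes was called higher, Pdia4 (162 and 68.3 CPM, 1.24, 0.36 to 2.17), while 2.52% of all measured genes were. Hspa5 did not differ beyond counting error there (481 and 438 CPM, log2 ratio 0.14, -0.29 to 0.55).

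The Pi16 adventitial-like cells, fibroblasts of the cuffs around airways and vessels (130 niche, 86 distal), had the smallest median among the fibroblast clusters compared here. None of the 10 genes was called higher, against 1.91% of all measured genes, and 1 interval lay above equality (4.01% of measured genes), that of Pdia6 (360.1 and 264 CPM, log2 ratio 0.44, 0.05 to 0.87). Hspa5 stood at 492 CPM in niche cells and 490.2 in distal ones (0.00, -0.30 to 0.32), and the median of the 10 ratios was 0.15, with a range of -0.26 to 0.18 over the 9 alternatives tried. The pericyte-like cluster was small (22 niche, 35 distal cells), and 7 of the 10 genes reached 10 UMIs in it. Manf was called higher (36 and 9 UMIs, log2 ratio 1.65, 0.62 to 2.94), beside 5.89% of all measured genes. Sdf2l1 and Creld2 gave no UMI in its distal cells, and 4 and 2 in its niche cells. A count of 0 allows up to 3 counts there, or 56.6 CPM.

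**Figure D2:**
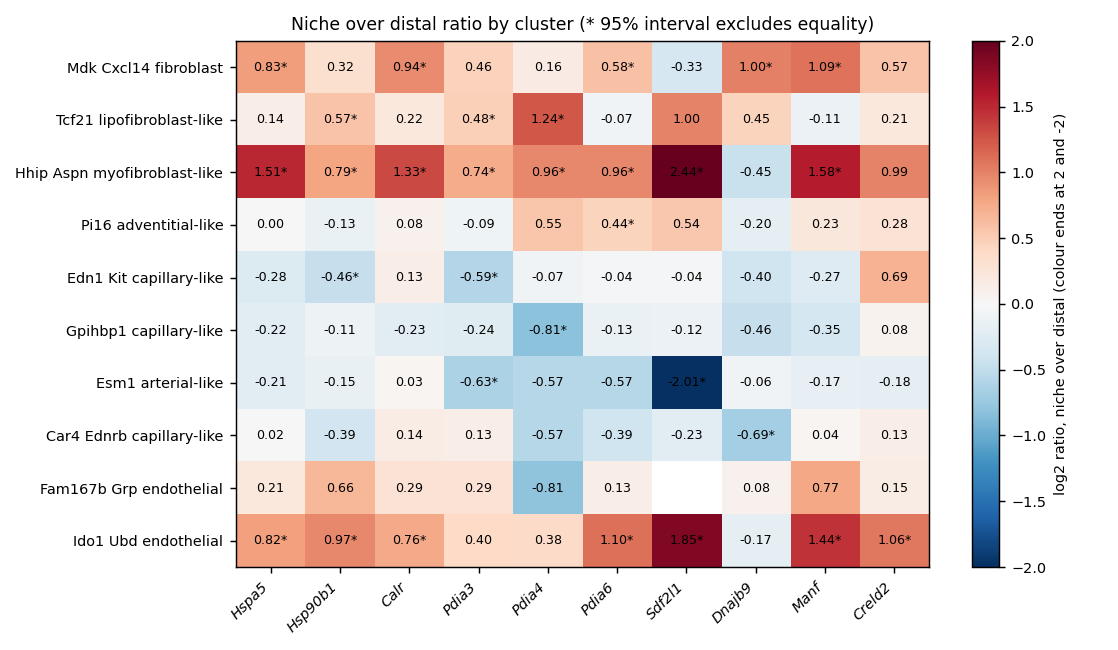
Log2 ratio of niche over distal for each gene (columns) in the fibroblast clusters (upper rows) and endothelial clusters (lower rows) with at least 20 cells in both libraries, pericyte-like cells apart; red is higher in niche, blue lower, blank is under 10 UMIs, and an asterisk marks a 95% interval that excludes equality. The myofibroblast-like and Ido1 Ubd rows hold the highest values (Sdf2l1 2.44 and 1.85). The Edn1 Kit, Gpihbp1 and Esm1 rows are mostly blue, and the Car4 Ednrb row holds 5 positive ratios of 10.

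A further fibroblast cluster was almost confined to the niche library, with 184 niche and 2 distal cells. It was led by Timp1, Ccl2, Ccl7 and Cxcl9, a protease inhibitor and chemokines, and 46 of its niche cells were low in Malat1. It could be compared only with the other niche mesenchymal-like cells of its own library. There, 10 of 10 chaperone genes had an interval above equality, against 10.1% of measured genes. None reached 2-fold, while 3.47% of measured genes were called higher. Hspa5 stood at 1020.0 CPM in this cluster and 587 in the other niche mesenchymal-like cells (log2 ratio 0.80, 0.67 to 0.92). Sdf2l1 stood at 136 and 70.6 (0.94, 0.58 to 1.30), Dnajb9 at 195 and 110.3 (0.83, 0.53 to 1.11) and Manf at 684 and 401 (0.77, 0.62 to 0.92). Without this cluster the niche over distal median of mesenchymal-like cells was 0.62, and Dnajb9 no longer had an interval above equality (0.09, -0.25 to 0.45).

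**Figure D3:**
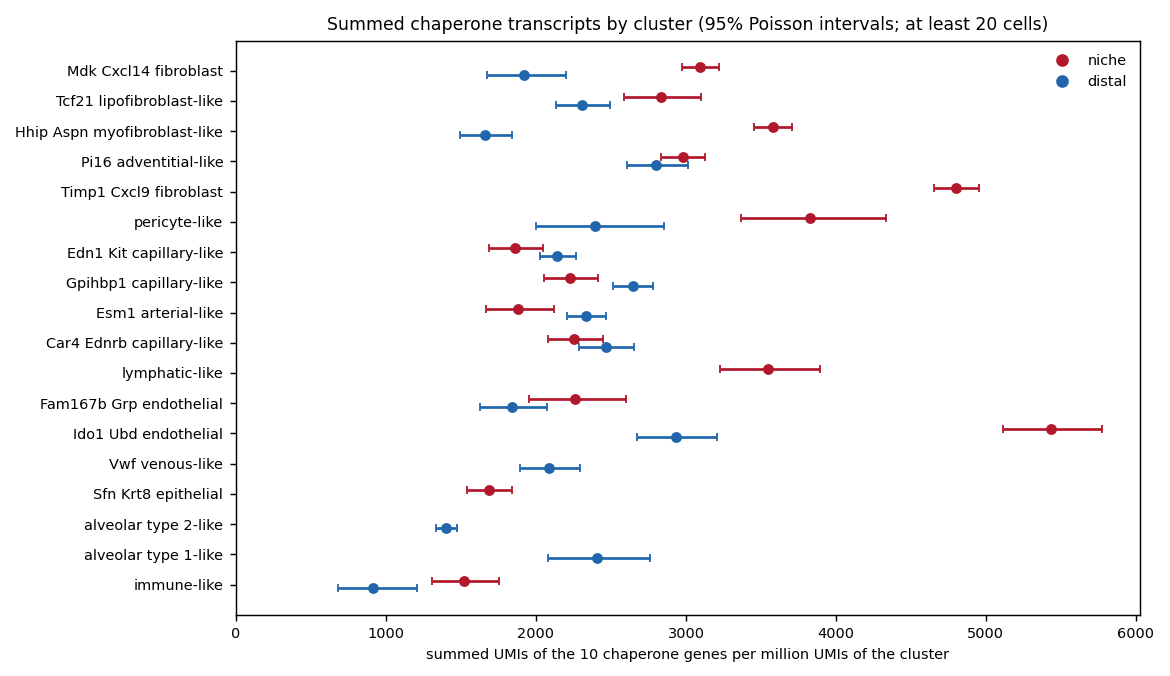
Summed level of the 10 genes in each cluster in CPM (horizontal axis, from 0) in the niche (red) and distal (blue) libraries, for clusters with at least 20 cells in that library, with exact 95% Poisson intervals. The highest niche sums are those of the Ido1 Ubd endothelial (5436) and Timp1 Cxcl9 fibroblast (4802) clusters, and myofibroblast-like cells go from 1662 in the distal to 3579 in the niche library.

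In endothelial-like cells as a class the genes stood closer together. None of the 10 was called higher or lower, while 2.12% of all measured genes were called higher and 1.58% lower. Of the 10 intervals, 5 lay above equality and 2 below, where 6.95% and 8.85% of measured genes did, and the median log2 ratio was 0.20 beside -0.04 for all genes. Hspa5 gave 662 niche and 986 distal UMIs in this class, or 483 and 383 CPM (0.34, 0.19 to 0.48). Manf stood at 378 and 267 (0.50, 0.33 to 0.67), Calr at 499.95 and 395 (0.34, 0.20 to 0.48) and Creld2 at 74.4 and 52.8 (0.50, 0.11 to 0.88). Pdia3 was level within counting error (0.03, -0.13 to 0.19). Pdia4 was lower in niche cells, at 114 and 139 CPM (-0.28, -0.57 to -0.01), as was Dnajb9, at 101 and 126 (-0.32, -0.62 to -0.03). The class differed in makeup between the libraries. Ido1 Ubd endothelial cells, described below, came to 51 of 497 niche and 65 of 1307 distal cells, and lymphatic-like cells to 34 and 11. Their summed levels of the 10 genes in the niche library were 5436 and 3549 CPM, against 2726 for the class. The part of this makeup in the class ratios was not tested.

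The class values were lower for several genes in cells of a common depth. Niche endothelial-like cells had a median of 2341 UMIs, and distal ones 1715. In the 311 niche and 606 distal cells of 1500 to 3000 UMIs the median log2 ratio was -0.11 and that of Hspa5 was -0.24 (-0.47 to -0.02), the opposite sign to all cells. Manf kept an interval above equality in those cells (0.34, 0.09 to 0.60), and Dnajb9 one below it (-0.44, -0.87 to -0.03). After thinning to 1200 UMIs the median was 0.09 and Hspa5 stood at -0.016. The cause of these shifts was not tested. Of 5 erythroid markers 1 was listed in both libraries, Hbb-bs, a haemoglobin subunit of red blood cells. Among endothelial-like cells its level was 4159 CPM on the niche side and 3.88 CPM on the distal side. Mesenchymal-like cells had 128 and 432 CPM of it. Its part in the result was not tested.

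**Figure D4:**
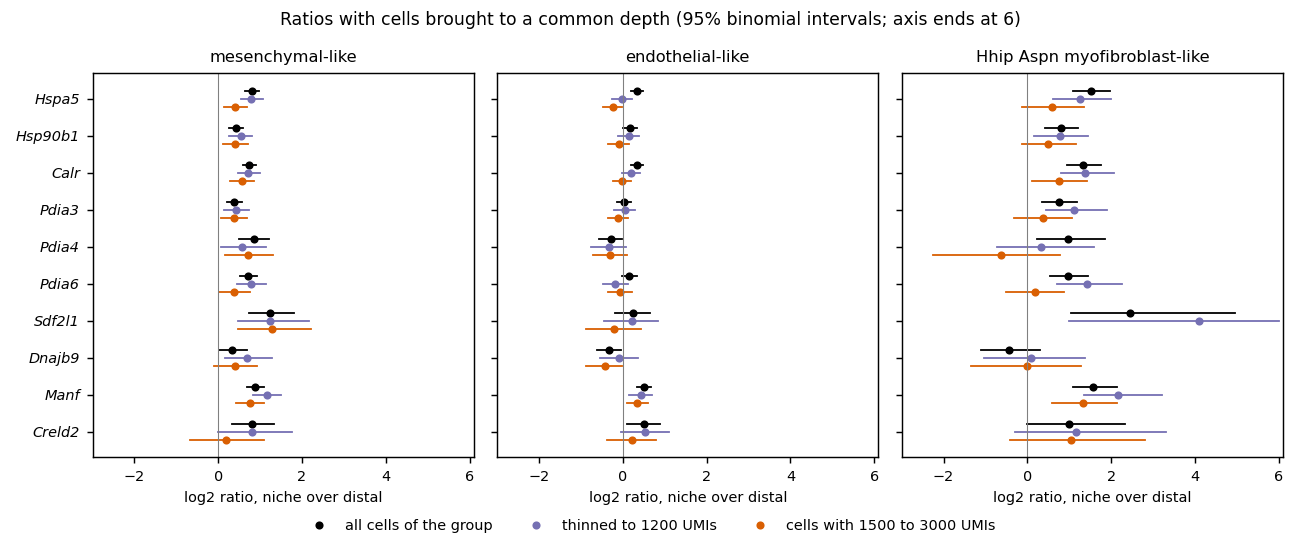
Log2 ratio of niche over distal for each gene with its 95% interval in mesenchymal-like, endothelial-like and myofibroblast-like cells, from all cells of the group (black), from cells thinned to 1200 UMIs (purple) and from cells of 1500 to 3000 UMIs (orange); a gene under 10 UMIs has no point, and lines past 6 end there. In mesenchymal-like cells all points lie above 0 in each set, while in endothelial-like cells Hspa5 goes from 0.34 to -0.24.

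The endothelial clusters did not share 1 direction. In the 3 largest, the Edn1 Kit capillary-like (116 niche, 421 distal cells), Gpihbp1 capillary-like (99 and 259) and Esm1 arterial-like cells (60 and 266), the median log2 ratios were -0.17, -0.23 and -0.20. The summed level of the 10 genes gave log2 ratios of -0.20 (-0.37 to -0.04), -0.25 (-0.38 to -0.11) and -0.31 (-0.50 to -0.12) in these clusters. None of the 10 had an interval above equality in any of these clusters, where 3.71%, 3.16% and 2.76% of measured genes did. Intervals below equality were found for 2, 1 and 2 of the 10 genes, and for 4.1%, 3.46% and 2.53% of measured genes. Hsp90b1 was lower in niche than in distal Edn1 Kit cells (222 and 309 CPM, -0.46, -0.96 to -0.02). Pdia3 was lower in Edn1 Kit cells (209 and 317 CPM, -0.59, -1.10 to -0.14) and in Esm1 cells (218 and 343, -0.63, -1.24 to -0.10). Pdia4 was lower in niche Gpihbp1 cells (83.6 and 149, -0.81, -1.57 to -0.16). Sdf2l1 was called lower in Esm1 cells on 2 niche and 37 distal UMIs (-2.01, -5.41 to -0.36), where 1.47% of all measured genes were. In Car4 Ednrb capillary-like cells, the large alveolar capillary type (92 and 124 cells), Dnajb9 was the single member whose interval excluded equality (114 and 184 CPM, -0.69, -1.39 to -0.02). Of all measured genes there, 3.07% had an interval above and 3.02% one below equality. The summed level of the 10 genes gave a log2 ratio of -0.13 (-0.29 to 0.03) in Car4 Ednrb cells.

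In the small Fam167b Grp endothelial cluster (26 niche, 63 distal cells), the median log2 ratio of the 9 measured genes was 0.21, beside 0.04 for all measured genes. No interval of a single gene excluded equality. Of all measured genes there, 4.06% had an interval above and 4.03% one below equality. The summed level of the 10 genes gave a log2 ratio of 0.30 (0.03 to 0.57). Another small endothelial cluster was led by Ido1, Ubd, Rsad2 and Tgtp1, genes known to be induced by interferon, and had 51 niche and 65 distal cells. It had the highest summed level of the 10 genes in each library, 5436 CPM in niche and 2932 in distal cells. In the distal library its interval overlapped that of the next cluster, the Pi16 adventitial-like cells (2804), and in the niche library it did not overlap that of the next, the Timp1 Cxcl9 fibroblasts (4802). Here 4 of 10 genes were called higher in niche cells, beside 3.25% of measured genes, and the median log2 ratio was 0.90. The summed level gave a log2 ratio of 0.89 (0.73 to 1.05). Manf stood at 944 and 346 CPM (1.44, 1.01 to 1.90), Pdia6 at 602 and 279 (1.10, 0.61 to 1.63), Creld2 at 168 and 78.9 (1.06, 0.13 to 2.14) and Sdf2l1 at 184 and 48.6 (1.85, 0.79 to 3.24). Hspa5 stood at 1067 and 601 (0.82, 0.48 to 1.19), and Dnajb9 at 97.0 and 109 (-0.17, -1.18 to 0.84).

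Its cells were deeper in the niche library, with medians of 3459 and 2247 UMIs. In the 20 niche and 36 distal cells of 1500 to 3000 UMIs, the median log2 ratio was 0.26. Manf (1.07, 0.31 to 1.86) and Pdia6 (1.33, 0.32 to 2.43) had intervals above equality, and that of Hspa5 spanned it (0.16, -0.57 to 0.85).

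The epithelial-like cells of the libraries differed in kind, so their class ratios set different cells against each other. Of the 94 niche cells, 69 fell in a cluster led by Scgb1a1, Cyp2f2, Sfn and Krt8, of which 44 were low in Malat1. Of the 254 distal cells, 216 were alveolar type 2-like, the surfactant-secreting cells, of which the niche library held 17. Sdf2l1 was called higher on 19 niche and 26 distal UMIs (46.4 and 21.8 CPM, log2 ratio 1.10, 0.16 to 1.9999), and 12.4% of all measured genes were called higher. Calr stood at 378 and 196 (0.95, 0.65 to 1.25), Manf at 290.4 and 159.9 (0.86, 0.52 to 1.20) and Pdia6 at 312 and 207 (0.60, 0.28 to 0.91). Hspa5 was level at 237 and 239 CPM (-0.01, -0.36 to 0.32).

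Dnajb9 was the single gene of the 10 called lower in any of the 3 classes. It gave 17 niche and 167 distal UMIs in epithelial-like cells, or 41.5 and 139.8 CPM (log2 ratio -1.72, -2.57 to -1.03), where 10.3% of all measured genes were called lower. Without the Sfn Krt8 cluster its ratio was -1.08 (-2.51 to -0.10), and without the low-Malat1 cells it was -1.01 (-1.959 to -0.27). The median of the 10 ratios was 0.32, and -0.02 when the totals left out the 50 most abundant genes. The part that the different makeup of the epithelial-like cells plays in these ratios was not tested.

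Within each library, the classes could be compared at shared handling. In the niche library the level of all 10 genes was highest in mesenchymal-like cells, and in the distal library that of 3 was. Over endothelial-like cells, the niche mesenchymal ratio had an interval above equality for 9 genes (19.6% of measured genes) and reached 2-fold for none (13% of measured genes), with Hspa5 at 0.53 (0.40 to 0.65). In the distal library 1 gene lay above equality, Hsp90b1 (0.23, 0.04 to 0.41), where 20.3% of measured genes did, and 1 below, Pdia4 (-0.74, -1.13 to -0.39), where 24.8% did. The median log2 ratios were 0.38 among niche and -0.06 among distal cells, beside -0.17 and -0.12 for all genes. Median depths of epithelial-like cells were 4139.5 niche and 5072.5 distal UMIs, and those of the other 2 classes are given above. The part of these depth differences was not tested.

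Alveolar type 2-like cells of the distal library were set against the endothelial-like cells of the same library. Against distal endothelial-like cells 4 of 10 were called lower, Calr (185 and 395 CPM, -1.10), Pdia3 (159 and 352, -1.14), Pdia4 (59.7 and 139, -1.21) and Sdf2l1 (20.2 and 50.9, -1.31). Of all measured genes 39.2% were called lower in that comparison, and the median log2 ratios of the 10 genes and of all genes were -0.80 and -0.82. The share of the 10 genes was near that background, so it says nothing about the chaperone genes as a group. Dnajb9 was level within counting error (140.5 and 126 CPM, 0.16, -0.13 to 0.44).

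Ordered by the summed level of the 10 genes, the niche clusters ran from the Ido1 Ubd endothelial (5436 CPM) and Timp1 Cxcl9 fibroblast clusters (4802) through pericyte-like (3831), myofibroblast-like (3579) and lymphatic-like cells (3549) to Sfn Krt8 epithelial (1685) and immune-like cells (1517). The 3 middle clusters of that list had overlapping intervals and were not told apart. In the distal library the order ran from Ido1 Ubd endothelial (2932) and Pi16 adventitial-like (2804) to myofibroblast-like (1662), alveolar type 2-like (1403) and immune-like cells (914). Neighbouring intervals overlapped there except for the last 2 steps. Myofibroblast-like cells held rank 4 in the niche order and rank 13 of 15 in the distal one.

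Across the 30 cluster-by-library sums with at least 20 cells, 8 of the 10 genes followed the mean of the other members closely, with Pearson correlations between 0.68 for Sdf2l1 and 0.88 for Hspa5. Creld2 (0.40) and Dnajb9 (0.36) followed it less. Among 3139 genes with a mean of at least 50 CPM, the non-members most like the mean of the 10 were Ube2l6 (0.84), Isg15 (0.81), Bst2 (0.80), Mvp (0.79) and Tapbp (0.77), the last a chaperone of MHC class I peptide loading. Xbp1 stood at 0.52, Atf4 at 0.43 and Ddit3 at 0.31. The correlation of the mean of the 10 with the median UMIs of the cells was 0.39. These are descriptions over sums that share 2 libraries, their depth and their free RNA.

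In mesenchymal-like cells the related ER lists counted next had medians below that of the 10 chaperones (0.77). They lay above the median of all measured genes (-0.16). Of all measured genes in this class, 3.35% were called higher and 7.51% lower. Of 22 other ER folding genes, 2 were called higher and none lower: Pdia5, a disulfide isomerase (47 and 3 UMIs, log2 ratio 1.99, 0.56 to 4.52), and Hyou1, an HSP70-like partner of HSPA5 (111 and 14 UMIs, 1.17, 0.41 to 2.13). The list's median was 0.27. Of 12 collagen-folding genes 2 were called higher, the prolyl hydroxylase subunit P4ha3 (97.3 and 39.6 CPM, 1.28, 0.80 to 1.83) and the lysyl hydroxylase Plod3 (85.7 and 36.4, 1.22, 0.72 to 1.80), with a list median of 0.52. Of 17 genes of ER-associated degradation 1 was called higher, the mannosidase-like Edem1 (107 and 15 UMIs, 1.02, 0.28 to 1.95), with a list median of 0.18. None of 22 translocation genes was called, and their median was 0.22.

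None of 13 sensors and transcription factors of the response was called higher or lower in mesenchymal-like cells, against 3.35% and 7.51% of all measured genes. The list's median log2 ratio was 0.04, beside -0.16 for all measured genes. Its summed level was 1364 CPM in niche and 1672 CPM in distal cells of this class. The list shares Atf3 with the immediate early list below, and the part of single genes in the sum was not tested. Xbp1, the factor of the IRE1 branch, stood at 223 CPM in niche cells and 217 in distal ones (log2 ratio 0.04, -0.19 to 0.27). Atf4, the factor of the PERK branch, stood at 251 and 239.6 (0.06, -0.15 to 0.29), and Ddit3, its target CHOP, at 90.4 and 101.6 (-0.17, -0.51 to 0.18). The counts here are of transcripts, and a 3′ count does not separate the spliced from the unspliced form of Xbp1. None of 10 PERK branch targets was called, with a list median of -0.09. Herpud1, a degradation gene also induced by the response, was at 99.8 and 122 CPM (-0.29, -0.60 to 0.03).

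Other stress lists were counted in the same cells, where 3.35% of all measured genes were called higher and 7.51% lower, with a median of -0.16. Of 15 cytosolic and mitochondrial heat shock genes 1 was called, Hspa1a, which was lower in niche cells (157 and 371 CPM, -1.24, -1.44 to -1.04), and the list's median was 0.14. Of 17 immediate early genes, which tissue dissociation is known to induce, none was called, and their median of -0.54 and their summed level (21736 CPM in niche, 32280.1 in distal cells) were lower in the niche library. Of 8 genes of MHC class I peptide loading, a process in which calreticulin and PDIA3 take part, 7 were called higher, with a median of 1.43 and with Tap1, a peptide transporter subunit, at 247 and 47.1 CPM (2.38, 1.95 to 2.87).

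In endothelial-like cells no other ER folding gene of 22, no degradation gene of 17 and no translocation gene of 22 was called. Of all measured genes in that class, 2.12% were called higher and 1.58% lower. Mbtps2, a protease that activates ATF6, was called lower on 14 and 63 UMIs (-1.22, -2.21 to -0.41), 1 of 13 regulators. Of 9 measured PERK branch targets 2 were called higher, Nupr1 (52 and 21 UMIs, 2.20, 1.46 to 3.02) and Asns (62 and 57 UMIs, 1.03, 0.49 to 1.58). Xbp1 was lower in niche cells by value, at 220.4 and 281 CPM (-0.35, -0.55 to -0.16). In epithelial-like cells, where 10.3% of all measured genes were called lower and 12.4% higher, 4 of 13 regulators were called lower beside Dnajb9. Among them were Xbp1 (24 and 146 UMIs, -1.04, -1.75 to -0.43), Creb3l2 (3 and 32 UMIs, -1.67, -4.22 to -0.20) and Creb3l1, which gave 0 UMIs in niche cells, which allows up to 7.32 CPM, and 49 in distal cells. Herpud1 (18 and 168 UMIs, -1.64, -2.47 to -0.97) and Edem1 (3 and 38 UMIs, -1.92, -4.46 to -0.46) were called lower as well. In the same cells 5 of 14 heat shock genes were called higher, among them Hspe1 (2.32) and Hspd1 (2.23), the mitochondrial chaperonin pair, and 9 of 17 immediate early genes were called lower.

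Over all cells, which mix different cell types in the 2 libraries, none of the 10 genes was called higher or lower, while 5.16% of all genes were called higher and 6.08% lower. The intervals of 9 lay above equality, as did those of 20.1% of all genes, and the median log2 ratio was 0.57 beside -0.08 for all genes. Dnajb9 was the exception (115 and 124 CPM, -0.11, -0.28 to 0.06). In cells of 1500 to 3000 UMIs the median was 0.16.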

How the data were processed

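Single-cell 3′ libraries (10x Chromium, per the labels' protocols) were counted with Cell Ranger 2.1.1 on mm10, with R 3.4.1 also named, per the submitters' processing notes. The deposited tables, 1 for each library, hold counts of UMIs for every gene in every cell, without normalization. The members and gene lists were chosen with earlier results of these data known.

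Cells under 500 genes or over 10% mitochondrial UMIs were left out. Counts were scaled to 10000 per cell, and 2000 variable genes without the 10 genes and without the lists of ER folding, regulator, PERK and degradation genes went into 20 principal components, 15 neighbours and Leiden clustering at resolution 1 (scanpy 1.11.5, leidenalg 0.10.2). Clusters took a name only from marker lists, and otherwise go by leading genes. Scrublet called 10 niche and 24 distal cells as doublets, which were kept.

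UMIs were summed per library and population over the 10198 common genes and given per 1000000 (CPM). A log2 ratio adds 0.5 UMI to each sum, and the exact conditional binomial interval (95%) leaves that addition out (scipy 1.17.1). PCR duplicates are removed by UMIs, but intervals cover counting error only. A population needed 20 cells, and a gene 10 UMIs over both libraries. The intervals were also computed on simulated Poisson counts, drawn under the counting model they assume. Variation between cells was left out of that run, so it says nothing about how the intervals cover such variation. All 10 genes were described. Of other listed genes, those called were eligible for naming, at most the 3 highest and 3 lowest per list by the nearer interval bound, with Xbp1, Atf4, Ddit3, Canx, P4hb, Hyou1 and Herpud1 always eligible. The genes most like the 10 were ranked by Pearson correlation of log2 (CPM + 10).

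Alternatives changed clustering genes and resolution, cell filters, doublets, low-Malat1 cells (under 10 Malat1 UMIs per 10000), scaling, cell and cluster weights, thinning and the UMI minimum. Promoter sequences came from the RefSeq table for GRCm38.p6, and annotations from GENCODE.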

Additional observations from a re-analysis of the deposited data

Results flagged for a closer look

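Pdia4 had opposite signs in 2 classes, with a niche over distal log2 ratio of 0.84 in mesenchymal-like and -0.28 in endothelial-like cells, both with intervals that excluded equality. The difference between the classes was not tested. Dnajb9 likewise stood at 0.34 in mesenchymal-like cells, -0.32 in endothelial-like cells and -1.72 in epithelial-like cells, and these differences were not tested either. The barcodes left out by the cell filters still held transcripts of the 10 genes: 12 of 90271 UMIs in 50 niche barcodes, or 132.9 CPM, and 5 of 10432 UMIs in 9 distal barcodes, or 479.3 CPM. Their exact Poisson intervals ran from 68.7 to 232 CPM and from 156 to 1119 CPM. These barcodes stood outside all comparisons.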

How the results depend on the processing

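No paired analysis was possible because each group holds 1 library. Over 15 alternatives, of which the range of 1500 to 3000 UMIs and the class without clusters nearly all niche were chosen after seeing the data, 536 values of 40 ratios were recomputed: 481 moved less than their interval, 51 moved more and 4 values whose interval had excluded equality changed sign. Of the 481, 40 belong to the higher minimum of 30 UMIs for a measured gene. That setting leaves each ratio unchanged by construction, so these 40 say nothing about stability. In cells of 1500 to 3000 UMIs the median over the 10 genes was 0.16 in all cells, 0.41 in mesenchymal-like cells and -0.11 in endothelial-like cells. There, endothelial Hspa5 (-0.24), Hsp90b1 (-0.095) and Calr (-0.011) and myofibroblast-like Pdia4 (-0.64) changed sign. No gene was called lower in epithelial-like cells of that range (0). Epithelial-like cells had median depths of 4139.5 niche and 5072.5 distal UMIs, so the range left out most of them. The 0 can therefore not be told apart from a loss of counts. Thinning gave -0.016 for endothelial Hspa5, an all-cell median of 0.44 and 2 genes called higher in mesenchymal-like cells, as did scaling by the median gene ratio (2). The mean over cells gave an all-cell median of 0.43, and 1 in place of 3 genes highest in distal mesenchymal-like cells. The number called higher in epithelial-like cells was 0 with no cell filter, without low-Malat1 cells and without the 50 most abundant genes in the totals. It was also 0 as a mean over cells, a setting without intervals in which a call rested on the ratio alone. It was 2 under scaling by the median gene ratio and without the Sfn Krt8 cluster, where the median was 0.73. The cause of these shifts was not tested. The share of all genes called was not counted under the alternatives. Changes in the number of genes called therefore say nothing about the chaperone genes as a group. Ratios of Sdf2l1 and Creld2 in single clusters rest on few UMIs, and clusters with under 20 cells in a library were not compared.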
